A study of Mus musculus with 4 samples.

Results

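Cytotoxic lymphocytes kill target cells with the contents of secretory granules, and 10 genes of that granule system were followed here, all 10 of them found by symbol among the 50686 Ensembl gene identifiers counted. They comprise 5 granzyme genes (Gzma, Gzmb, Gzmc, Gzmk and Gzmm), the gene of the pore-forming protein perforin (Prf1), the granule membrane protein gene Nkg7, the granule cathepsin gene Ctsw, and 2 genes of intracellular serpins that inhibit granule proteases (Serpinb9 and Serpinb6b). In a cytotoxic cell, perforin opens the membrane of the target cell, and the granzymes, a family of serine proteases, then enter it and cleave proteins that lead to cell death. Serpins in the cytosol protect the cytotoxic cell from granzymes that leak from its own granules. In CD8 T cells, granzyme B and perforin are made after activation through the T cell receptor, whereas natural killer cells and memory T cells can hold several granule proteins ready in the resting state.

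The series holds 4 mouse RNA-seq libraries from cells of spleen and lymph node, 1 each of stimulated Yap KO, stimulated WT, unstimulated Yap KO and unstimulated WT cells. RNA came from cell culture, per the labels. The stimulated titles carry the number 24 without a unit and the unstimulated titles carry none, so time in culture may differ between the states. The stimulus, the cell type, the age and strain of the mice, the number of animals, the Yap allele and the Cre or other means of deletion are stated in none of the labels. All titles have the same replicate number, 1. A single mouse may thus lie behind both libraries of a genotype, and a genotype effect and an animal effect cannot be told apart.

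Reads in genes numbered 19935523 to 25419974 per library. Yap1, the presumed target of the knockout, had 2 reads in stimulated Yap KO, 3 in stimulated WT, 0 in unstimulated Yap KO and 1 in unstimulated WT cells, too few to check the genotype. Cd8a, a marker of CD8 T cells, stood at 252 CPM (reads relative to library size, scaled between libraries by the TMM method) in stimulated Yap KO and 271 CPM in stimulated WT cells, and at 783 CPM in unstimulated Yap KO and 822 CPM in unstimulated WT cells. Cd4 had at most 3 reads in any library, but the other CD4 T cell markers listed had more. Cd40lg had 263 and 383 reads in stimulated Yap KO and WT cells, and 279 and 398 in unstimulated Yap KO and WT cells. Zbtb7b had 87 and 63 reads in stimulated Yap KO and WT cells, and 54 and 9 in unstimulated Yap KO and WT cells. No group had a replicate, so each level is from 1 library and its 95% interval covers counting error only. Levels of different genes are compared as TPM, which divides reads by exon length. In bulk RNA, fewer cells of a type and less RNA per cell cannot be told apart.

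The granzymes are related in sequence, which bears on how well their reads can be separated. Gzmb and Gzmc lie beside each other on chromosome 14 (GRCm38), Gzmb from 56258838 to 56262260 and Gzmc from 56231441 to 56234656, both on the minus strand. Their coding sequences were identical at 76.6% of aligned bases, against 53.6 to 60.3% for the other 9 pairs of the 5 granzymes. The longest run of bases that both share is shown because a read within it cannot be assigned to either gene. It covers coding bases 352 to 400 of Gzmb and 355 to 403 of Gzmc, counted from 1 at the start codon in GENCODE M21:
Gzmb and Gzmc shared run: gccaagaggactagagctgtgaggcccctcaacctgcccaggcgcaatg
Of the 31-base words in the transcripts of Gzmc, 14.8% were also found in another gene, most often in Gzme, whereas Gzmb shared 1.35% of its words and Gzma, Gzmk and Gzmm shared none. Reads aligned in more than 1 place were not counted for any gene.

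Sequence upstream of the start sites is shown for 2 granzyme genes that rose with stimulation, Gzmb and Gzmc, and 2 that fell, Gzma and Gzmm, because these 4 share a family and moved in opposite directions. Each run is the 250 bases before the RefSeq start site (GRCm38.p6), read 5′ to 3′ on the strand of the gene, at chr14:56262335-56262584 for Gzmb, chr14:56234658-56234907 for Gzmc, chr13:113100982-113101231 for Gzma, all on the minus strand, and at chr10:79688770-79689019 on the plus strand for the upstream of 2 Gzmm start sites. Capitals mark the letters of the AP-1 motif TGANTCA, the RUNX motif TGTGGT and the cyclic AMP response element TGACGTCA on either strand:
Gzmb upstream: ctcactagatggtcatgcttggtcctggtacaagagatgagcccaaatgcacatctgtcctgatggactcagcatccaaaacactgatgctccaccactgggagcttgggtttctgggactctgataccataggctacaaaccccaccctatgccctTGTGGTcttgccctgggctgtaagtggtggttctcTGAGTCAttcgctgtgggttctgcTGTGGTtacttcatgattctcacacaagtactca
Gzmc upstream: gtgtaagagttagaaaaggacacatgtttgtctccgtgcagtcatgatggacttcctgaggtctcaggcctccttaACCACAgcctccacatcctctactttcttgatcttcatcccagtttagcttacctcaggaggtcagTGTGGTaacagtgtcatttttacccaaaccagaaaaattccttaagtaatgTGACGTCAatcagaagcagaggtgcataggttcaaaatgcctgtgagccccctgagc
Gzma upstream: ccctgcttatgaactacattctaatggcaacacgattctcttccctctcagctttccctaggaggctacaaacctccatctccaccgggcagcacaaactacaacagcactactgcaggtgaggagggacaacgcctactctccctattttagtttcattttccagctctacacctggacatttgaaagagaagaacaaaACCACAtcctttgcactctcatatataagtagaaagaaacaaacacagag
Gzmm upstream: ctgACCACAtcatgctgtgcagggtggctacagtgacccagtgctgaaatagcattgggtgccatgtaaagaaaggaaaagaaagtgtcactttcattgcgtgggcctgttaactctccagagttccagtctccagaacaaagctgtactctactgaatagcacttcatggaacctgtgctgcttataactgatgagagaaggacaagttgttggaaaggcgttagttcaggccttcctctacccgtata
The Gzmb window held 1 AP-1 match, 58 to 52 bases before the start site, between RUNX matches at 93 to 88 and at 34 to 29 bases. The Gzmc window held RUNX matches at 174 to 169 and at 108 to 103 bases and the full cyclic AMP response element at 57 to 50 bases. The Gzma and Gzmm windows held 1 RUNX match each, at 50 to 45 and at 247 to 242 bases, and neither held an AP-1 match. The STAT motif TTCNNNGAA, the T-box motif AGGTGTGA and the NFAT core GGAAA were also searched but not marked. The Gzma window held NFAT core matches at 198 to 194 and at 91 to 87 bases. The Gzmm window held a STAT match at 86 to 78 bases and NFAT core matches at 176 to 172 and at 37 to 33 bases. The Gzmb and Gzmc windows held none of these unmarked motifs. The marked matches did not overlap one another. Over 32851 windows of the same length before RefSeq start sites, 6.75% held TGANTCA, 14.0% TGTGGT and 1.55% TGACGTCA. Of the unmarked motifs, 7.02% held TTCNNNGAA, 1.12% AGGTGTGA and 55.6% GGAAA. A promoter entry was at hand for 9 of the 10 granule genes. TGTGGT was found in the windows of Gzma, Gzmb, Gzmc, Gzmm, Prf1 and Nkg7, among which 2 rose, 3 fell and 1 missed the threshold in the stimulation test. Serpinb9 and Serpinb6b, which rose, and Gzmk, which fell, had no match to a marked motif. These matches describe letters and not bound sites.

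The first comparison asked how the granule genes differed between stimulated and unstimulated cells of both genotypes. The genes split into opposite directions: Gzmb, Gzmc and both serpin genes were far higher in the stimulated libraries, Gzma, Gzmk, Gzmm and Ctsw were far lower, Nkg7 was about 2-fold lower, and Prf1 differed least. Gzmb, which cleaves after aspartate and activates caspases, had the largest fitted change, although that of Gzmc, which rests on 1 and 0 unstimulated reads, cannot be ranked against it. All 10 genes passed the filter on low counts and entered edgeR's quasi-likelihood test with additive terms for genotype and state. In that test 4 genes rose and 5 fell at an adjusted p of 0.05, among 15394 genes of which 32.1% rose and 32.5% fell. The median log2 change was -0.67 over the 10 genes and -0.05 over all genes tested, and it fell between groups of genes at opposite ends. No group had a second culture, so a gene's own error in this test comes from how far its changes in Yap KO and WT resembled each other. That error has 1 residual degree of freedom and was moderated with the errors of all genes tested. The errors of all genes carried more weight, with 8.45 prior degrees of freedom on average.

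**Figure D1:**
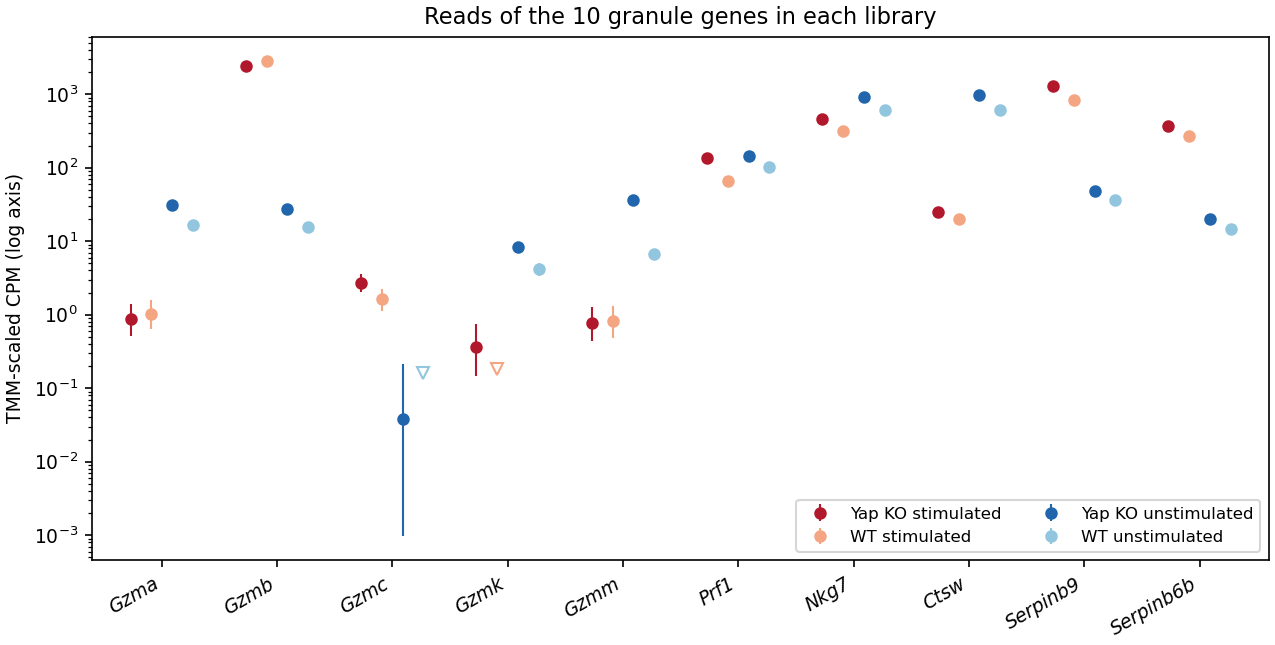
TMM-scaled CPM on a log axis for each granule gene in each of the 4 libraries, with exact 95% Poisson intervals as bars where they exceed the point. Open triangles stand at the upper limit of a library with no read. Gzmb lies at 2433 and 2853 CPM in stimulated Yap KO and WT cells, against 27.1 and 15.4 CPM in unstimulated Yap KO and WT cells.

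Gzmb had 46981 reads in stimulated Yap KO and 58285 in stimulated WT cells, against 703 in unstimulated Yap KO and 353 in unstimulated WT cells. Both stimulated libraries lay far above both unstimulated ones, 89.9-fold (95% counting interval 83.5 to 97.0) in Yap KO and 185-fold (167 to 206) in WT. The additive log2 change was 6.998 ± 0.267 (SE, edgeR quasi-likelihood adjusted p = 3.81e-08). By TPM, Gzmb was the 6th most abundant gene in each stimulated library, against rank 3099 in unstimulated Yap KO and 5005 in unstimulated WT cells.

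Gzmc, a granzyme of the same gene cluster, had 52 reads in stimulated Yap KO and 33 in stimulated WT cells, against 1 in unstimulated Yap KO and 0 in unstimulated WT cells. The ratio was 70.0 in Yap KO, with a counting interval of 12.0 to 2816, and at least 12.3-fold higher in WT when set against a floor of 3 counts per library, with a counting interval that began at 9.48-fold. The rise was called (adjusted p = 0.000228), but the level stayed low, at 8.54 TPM in stimulated Yap KO and 4.99 TPM in stimulated WT cells, where Gzmb stood at 4803 TPM in Yap KO and 5491 TPM in WT. Gzmc reads were 0.111% of Gzmb reads in stimulated Yap KO and 0.0566% in stimulated WT cells, and 0.142% in unstimulated Yap KO and 0% in unstimulated WT cells. Both genes share sequence, and the part of reads from Gzmb in these counts was not tested.

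Gzma, a tryptase-type granzyme, had 17 reads in stimulated Yap KO and 21 in stimulated WT cells, against 809 in unstimulated Yap KO and 387 in unstimulated WT cells. It was 35.4-fold lower (21.95 to 61.01) with stimulation in Yap KO and 16.4-fold lower (10.6 to 26.8) in WT, and the additive log2 change was -4.58 ± 0.31 (adjusted p = 1.06e-06). Both stimulated libraries were below both unstimulated ones, as they were for the next 2 granzymes.

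Gzmk, another tryptase-type granzyme that lies near Gzma on chromosome 13 and is a marker of memory CD8 T cells, had 7 reads in stimulated Yap KO and 0 in stimulated WT cells, against 217 in unstimulated Yap KO and 95 in unstimulated WT cells. It was 23.0-fold lower in Yap KO (10.99 to 58.0) and, against the same floor, at least 28.2-fold lower in WT, with a counting interval that began at 22.5-fold (adjusted p = 5.13e-05). Gzmm, which prefers to cleave after methionine and leucine and is typical of innate-type lymphocytes, had 15 reads in stimulated Yap KO and 17 in stimulated WT cells, against 953 in unstimulated Yap KO and 153 in unstimulated WT cells. That was 47.2-fold lower in Yap KO (28.5 to 84.7) and 8.02-fold lower in WT (4.85 to 14.1), with an additive log2 change of -4.41 ± 0.49 (adjusted p = 3.12e-05).

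The make-up of the granzyme messages was exchanged between the states. Gzmb made up 99.7% of the summed TPM of the 5 granzymes in stimulated Yap KO and 99.8% in stimulated WT cells, against 23.3% in unstimulated Yap KO and 30.6% in unstimulated WT cells. Gzma, Gzmk and Gzmm together made up 0.0979% and 0.0797% in stimulated Yap KO and WT cells, against 76.6% and 69.4% in unstimulated Yap KO and WT cells. The sum of the 5 was 4817 TPM in stimulated Yap KO and 5500 TPM in stimulated WT cells, against 238 TPM in unstimulated Yap KO and 102 TPM in unstimulated WT cells. Stimulated Gzmb alone, at 4803 TPM in Yap KO and 5491 TPM in WT, stood far above these unstimulated sums.

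**Figure D2:**
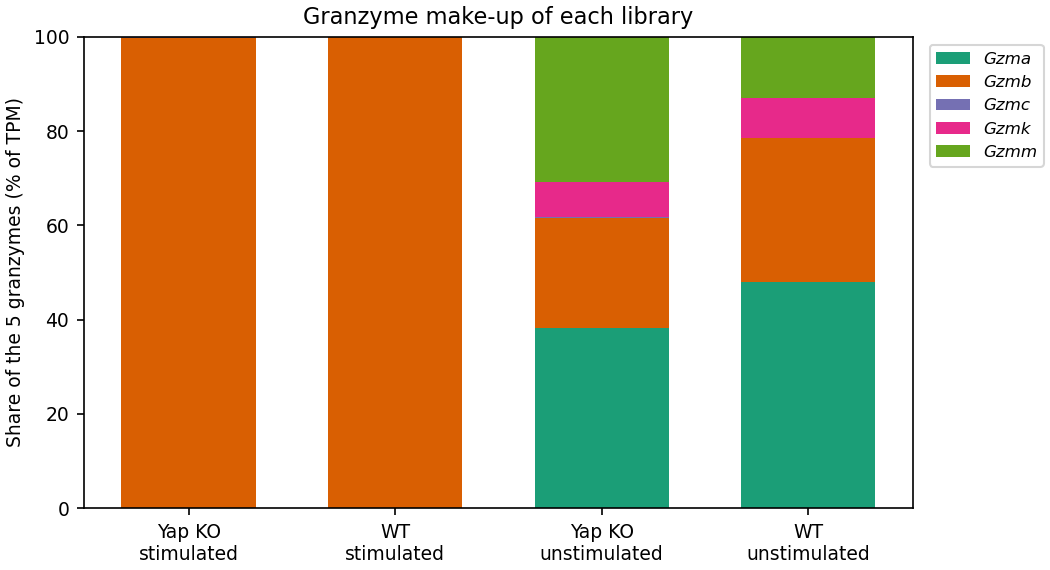
Share of each of the 5 granzyme genes in their summed TPM (percent, stacked bars starting at 0), 1 bar per library. Both stimulated libraries consist almost wholly of Gzmb, at 99.7% in Yap KO and 99.8% in WT, whereas Gzma, Gzmk and Gzmm together hold 76.6% and 69.4% of the unstimulated Yap KO and WT bars.

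Prf1, without which granzymes do not reach the cytosol of the target, had 136 CPM in stimulated Yap KO and 66.5 CPM in stimulated WT cells, against 143 CPM in unstimulated Yap KO and 104 CPM in unstimulated WT cells. Its stimulation ratio was 0.952 in Yap KO (0.905 to 1.001) and 0.640 in WT (0.598 to 0.684). The additive log2 change of -0.35 ± 0.15 missed the threshold (adjusted p = 0.0681). With libraries scaled to total reads alone the change was called (log2 change -0.44, adjusted p = 0.0371), as it was with no filter on low counts (-0.36, adjusted p = 0.0281). The Prf1 change was not called with DESeq2's size factors, a filter of mean CPM of 1 or more, or DESeq2's Wald test. Nor was it called when genes with exons opposite another gene were left out. By TPM, Gzmb exceeded Prf1 by 32.1 times in stimulated Yap KO and 77.2 times in stimulated WT cells, whereas in unstimulated cells the ratio was 0.340 in Yap KO and 0.267 in WT.

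Nkg7, a granule membrane protein needed for full degranulation, fell with stimulation, to 458 CPM in stimulated Yap KO and 317 CPM in stimulated WT cells, against 930 CPM in unstimulated Yap KO and 612 CPM in unstimulated WT cells (log2 change -0.99 ± 0.12, adjusted p = 7.20e-05). It was still second by TPM among the 10 genes in both stimulated libraries. Ctsw, a cathepsin found mainly in CD8 T and natural killer cells, fell much further, to 476 and 414 reads in stimulated Yap KO and WT cells, against 25215 and 13873 reads in unstimulated Yap KO and WT cells (log2 change -5.10 ± 0.16, adjusted p = 1.98e-08). Only 9 of its 1887 exon bases lie opposite those of another gene, Fibp, and none of the other 9 granule genes has such overlap.

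The serpin genes rose. Serpinb9, the inhibitor of granzyme B, had 1280 CPM in stimulated Yap KO and 824 CPM in stimulated WT cells, against 47.8 CPM in unstimulated Yap KO and 36.0 CPM in unstimulated WT cells. It was 26.8-fold higher with stimulation in Yap KO (25.3 to 28.4) and 22.9-fold higher in WT (21.4 to 24.6), with an additive log2 change of 4.63 ± 0.15 (adjusted p = 1.97e-08). Serpinb6b, which in the mouse inhibits granzyme A, had 368 CPM in stimulated Yap KO and 266 CPM in stimulated WT cells, against 20.1 CPM in unstimulated Yap KO and 14.8 CPM in unstimulated WT cells. Its rise was nearly the same in both genotypes, 18.3-fold in Yap KO (16.7 to 20.0) and 17.95-fold in WT (16.1 to 20.1), with a log2 change of 4.18 ± 0.14 (adjusted p = 2.13e-08). The gene rose while Gzma fell.

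Both serpin genes lie close together on chromosome 13 of GRCm38, Serpinb6b from 32965209 to 32979067 and Serpinb9 from 33003250 to 33017957, and they share 6.83% and 4.94% of their 31-base words with other genes. By TPM, Serpinb9 stood at 0.216 of Gzmb in stimulated Yap KO and 0.119 in stimulated WT cells, against 0.726 in unstimulated Yap KO and 0.961 in unstimulated WT cells. The inhibitor therefore rose by less than the protease on this scale in both genotypes.

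The order of the genes by TPM showed the same exchange. In both stimulated libraries it ran Gzmb, Nkg7, Serpinb9, Serpinb6b, Prf1, Ctsw, Gzmc, Gzma, Gzmm and Gzmk, and its low end was not well separated. The counting intervals in TPM of Gzma and Gzmm overlapped in both stimulated libraries, as did those of Gzmm and Gzmk in stimulated Yap KO and of Gzmc and Gzma in stimulated WT cells. In unstimulated cells Nkg7, Ctsw, Prf1 and Gzma led in both genotypes, at 3000, 1516, 163 and 91.2 TPM in Yap KO and 1956, 937, 118 and 49.1 TPM in WT. The next places differed by genotype: Gzmm ranked 5 in unstimulated Yap KO cells, at 73.5 TPM, and 8 in unstimulated WT cells, at 13.3 TPM. Gzmb and Serpinb9 were neighbours in unstimulated WT cells at 31.3 and 30.1 TPM, with intervals that overlapped.

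**Figure D3:**
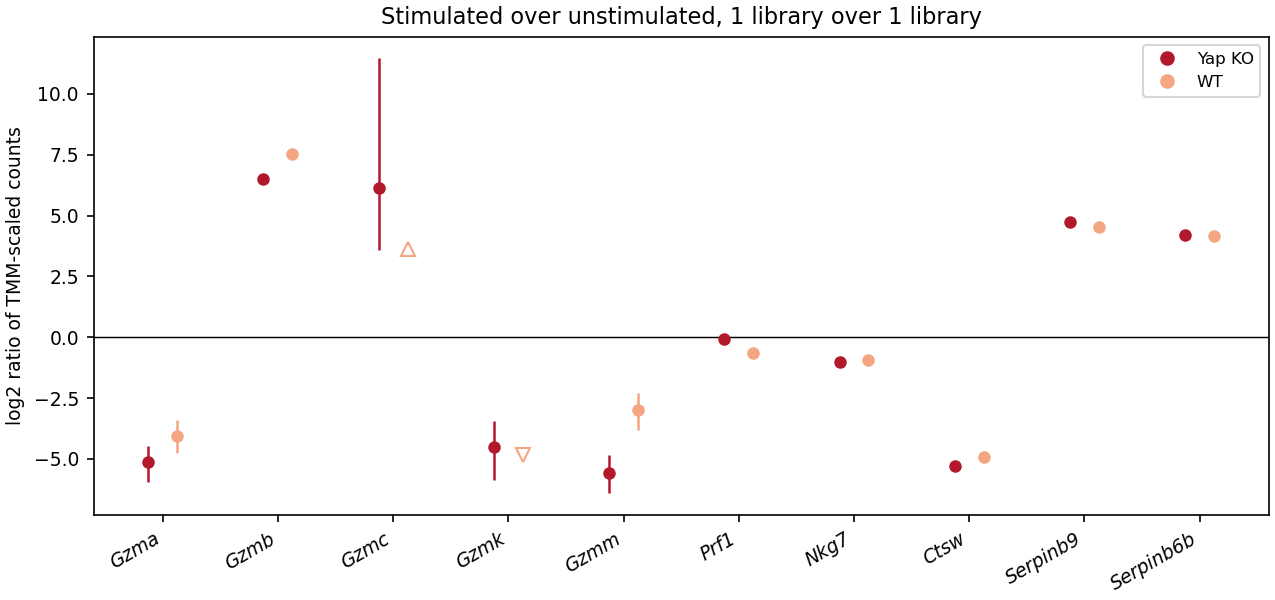
The log2 ratio of stimulated over unstimulated TMM-scaled counts for each granule gene, 1 point per genotype, with 95% counting intervals. Open triangles are bounds against a floor of 3 counts where a library had no read. Gzmb, Gzmc, Serpinb9 and Serpinb6b lie above 0, and Gzma, Gzmk, Gzmm, Nkg7 and Ctsw lie below it, in both genotypes.

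Of the 10 genes, 4 were at least 2-fold higher with stimulation in Yap KO, where 22.7% of all genes were, and 5 were at least 2-fold lower, where 25.9% were. In WT 4 were at least 2-fold higher, against 23.8% of all genes, and 4 at least 2-fold lower, against 24.5%. The one that differed was Nkg7, at 2.03-fold lower in Yap KO and 1.93-fold lower in WT. The size of the response differed more between genotypes for some genes. The log2 stimulation ratio of Yap KO minus that of WT was -2.54 (counting interval -3.51 to -1.56) for Gzmm, -1.09 (-1.98 to -0.19) for Gzma, -1.04 (-1.22 to -0.85) for Gzmb and 0.57 (0.45 to 0.69) for Prf1. In total 4 of the 10 genes had responses at least 2-fold apart, namely Gzma, Gzmb, Gzmm and Gzmk. The last rests on a count of 0, with a difference of 1.29 (-0.94 to 3.53) that becomes 3.05 with a prior count of 0.5. Among all genes 13.0% were that far apart. The interval of this difference excluded 0 for 7 of the 10 genes and for 42.0% of all genes, and with 1 library per group there is no replicate error against which to set it.

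The second comparison set Yap KO against WT, separately for stimulated and unstimulated cells. In the unstimulated state 9 of the 10 genes were higher in Yap KO, Gzmm by 5.49 times and the other 8 by 1.33 to 2.01 times, and Gzmc had too few reads. The counting intervals of these 9 lay above no difference, as did those of 29.1% of all genes. In the stimulated state perforin, Nkg7, Ctsw and the serpins were still higher in Yap KO, whereas Gzmb was lower. In edgeR's quasi-likelihood test of the genotype term, none of the 10 was called in either direction, where 0.695% of all genes were called higher and 0.487% lower. At an unadjusted p under 0.05 there were 7 of the 10, against 10.04% of all genes, and DESeq2 called 3 higher, Prf1, Nkg7 and Serpinb9, of the 9 to which it gave an adjusted p, where 0.604% of all genes were called higher. With both libraries of a genotype possibly from the same mouse, these p-values understate the error between animals. The median log2 difference was 0.58 over the 10 genes and 0.02 over all genes tested.

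Gzmm showed the widest gap between unstimulated libraries, with 36.7 CPM (34.4 to 39.1) in Yap KO and 6.68 CPM (5.66 to 7.82) in WT. In stimulated cells it could not be told apart between genotypes at this depth, with 0.777 CPM (0.435 to 1.28) in Yap KO and 0.832 CPM (0.485 to 1.33) in WT. Gzma also differed in unstimulated cells and could not be told apart in stimulated ones, whereas Gzmk was higher in Yap KO in both states. Unstimulated Gzma was 1.84-fold higher in Yap KO (1.63 to 2.09), at 31.1 CPM in Yap KO and 16.9 CPM in WT, and its stimulated ratio was 0.857 (0.424 to 1.70). Unstimulated Gzmk was 2.01-fold higher (1.58 to 2.59), at 8.35 CPM in Yap KO and 4.15 CPM in WT, and its stimulated reads, 7 in Yap KO and 0 in WT, gave a counting interval that began at 1.52-fold and had no upper end.

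Gzmb turned round between the states. In unstimulated cells it was 1.76-fold higher in Yap KO (1.54 to 2.00), with 27.1 CPM in Yap KO and 15.4 CPM in WT. In stimulated cells the ratio was 0.853 (0.843 to 0.863), with 2433 CPM in Yap KO and 2853 CPM in WT. The counting intervals thus lay on opposite sides of no difference, as they did in this order for 5.39% of all genes. The additive test, which averages both states, gave a log2 difference of 0.25 ± 0.21 (edgeR quasi-likelihood adjusted p = 0.785).

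Prf1 was the gene with the widest gap in stimulated cells among those with over 100 reads. It was 2.05-fold higher in stimulated Yap KO than in stimulated WT (1.92 to 2.19) and 1.38-fold higher in unstimulated Yap KO than in unstimulated WT (1.31 to 1.45), and the additive log2 difference was 0.75 ± 0.15 (edgeR quasi-likelihood adjusted p = 0.0599). Nkg7 differed by nearly the same factor in both states, 1.44 stimulated (1.40 to 1.49) and 1.52 unstimulated (1.49 to 1.55), with an adjusted p of 0.0722 in the same test. Ctsw differed by 1.22 (1.06 to 1.39) and 1.60 (1.57 to 1.64), Serpinb9 by 1.55 (1.52 to 1.58) and 1.33 (1.21 to 1.45), and Serpinb6b by 1.38 (1.33 to 1.43) and 1.35 (1.18 to 1.56), each in the order stimulated and unstimulated. Gzmc, with 52 reads in Yap KO and 33 in WT, was 1.67-fold higher in stimulated Yap KO (1.06 to 2.66) and had too few unstimulated reads for a ratio.

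**Figure D4:**
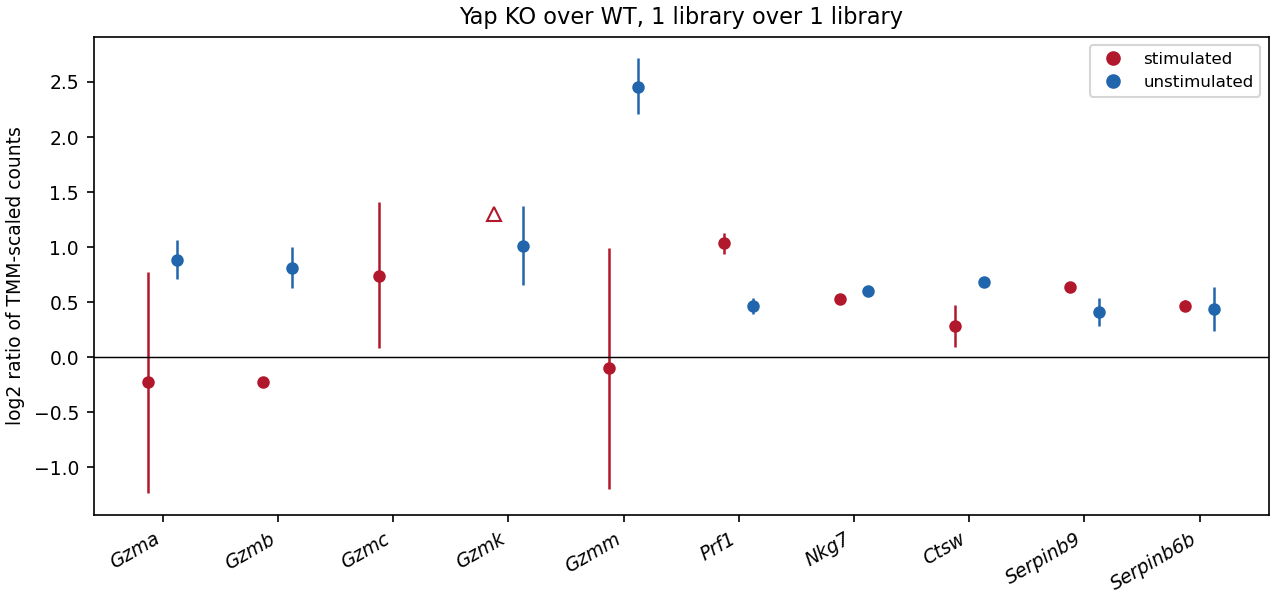
The log2 ratio of Yap KO over WT TMM-scaled counts for each granule gene, 1 point per state, with 95% counting intervals. The open triangle is a bound against a floor of 3 counts, and unstimulated Gzmc has no point. All unstimulated points lie above 0, with Gzmm highest at 5.49-fold, and stimulated Gzmb, Gzma and Gzmm lie below 0, the last 2 with intervals that include 0.

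The counting interval lay above no difference for 9 of the 10 genes in unstimulated cells, where 29.1% of all genes did so. In stimulated cells it did for 7 of the 10 against 23.9%, and in both states for 6 of the 10 against 10.8%, namely Gzmk, Prf1, Nkg7, Ctsw, Serpinb9 and Serpinb6b. These intervals narrow with depth, and most of the 10 genes are well read. A ratio of 2-fold or more was rarer, 2 of the 10 in stimulated cells (Prf1 and Gzmk) against 4.02% of all genes, and 1 of the 10 in unstimulated cells (Gzmm) against 4.81%. These counts use ratios with a prior count of 2, which puts unstimulated Gzmk just under 2-fold, at 0.997 on the log2 scale, where its plain ratio is 2.01.

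Markers of other granule-bearing cells differed between the unstimulated libraries in both directions. Those of natural killer and gamma-delta T cells summed to more CPM in Yap KO than in WT, and those of mast cells and basophils and of neutrophils to less. The 7 natural killer cell markers summed to 2.33 CPM in stimulated Yap KO and 1.62 CPM in stimulated WT cells, and to 21.1 CPM in unstimulated Yap KO and 6.98 CPM in unstimulated WT cells. Among them Ncr1, an activating receptor, had 15 reads in unstimulated Yap KO and 2 in unstimulated WT cells, Klra8 had 62 and 2 reads in the same order, and Klrb1c had 75 and 50. Klre1 made up most of the sum, at 13.5 CPM in unstimulated Yap KO and 3.27 CPM in unstimulated WT cells, and Fcgr3 was about level, with 13 reads in unstimulated Yap KO and 14 in unstimulated WT cells. In stimulated Yap KO cells 1 of the 7 markers was at 0, Klrb1c, and in stimulated WT cells 2 were, Ncr1 and Klra8. Of the 3 that entered the test, 2 fell with stimulation, where 32.5% of all genes fell. None was called between genotypes by edgeR's quasi-likelihood test or DESeq2. In the former 1 had an unadjusted p under 0.05, against 10.04% of all genes.

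The 4 gamma-delta T cell markers that were found summed to 39.6 CPM in stimulated Yap KO and 23.9 CPM in stimulated WT cells, and to 384 CPM in unstimulated Yap KO and 243 CPM in unstimulated WT cells, most of it from Trdc, part of whose exons lie opposite another gene. All 4 fell with stimulation, where 32.5% of all genes fell. Sox13, a transcription factor of such cells, was called higher in Yap KO (log2 difference 1.71 ± 0.25, edgeR quasi-likelihood adjusted p = 0.0115). It was the 1 marker of the 4 called in that test, where 0.695% of all genes were called higher. In the same test 3 of the 4 had an unadjusted p under 0.05, against 10.04% of all genes. DESeq2 called 2 of the 4 between genotypes, where it called 0.604% of all genes higher. Mast cells also store granule proteases, but Mcpt4 and Fcer1a had no read in any library, and the 5 mast cell and basophil markers summed to at most 1.31 CPM. The 4 plasmacytoid dendritic cell markers summed to 109 CPM in stimulated Yap KO and 133 CPM in stimulated WT cells, and to 95.3 CPM in unstimulated Yap KO and 197 CPM in unstimulated WT cells, the last gap mainly through Ccr9, which T cells also express and whose exons partly lie opposite another gene. Bst2 made up most of the stimulated plasmacytoid sums, at 106 CPM in Yap KO and 129 CPM in WT, and Siglech had 0 reads there. Lists of cells without such granules differed too. The 4 B cell markers summed to 15.2 CPM in stimulated Yap KO and 6.07 CPM in stimulated WT cells, and to 18.5 CPM in unstimulated Yap KO and 8.64 CPM in unstimulated WT cells. The 4 conventional dendritic cell markers summed to 25.1 CPM in stimulated Yap KO and 14.2 CPM in stimulated WT cells, and to 14.1 CPM in unstimulated Yap KO and 7.94 CPM in unstimulated WT cells. Zbtb46 made up most of the stimulated sums, at 23.5 CPM in Yap KO and 12.5 CPM in WT. Stimulated Xcr1 went the other way, with 21 reads in Yap KO and 29 in WT. In unstimulated Yap KO and WT cells, the 3 plasma cell markers summed to 1050 and 1118 CPM and the 3 erythroid markers to 1.69 and 2.75 CPM. Ighm made up most of the plasma cell sums, at 1019 and 1080 CPM in unstimulated Yap KO and WT cells. Of the other plasma cell markers, Jchain had 659 and 862 reads and Sdc1 160 and 14 in unstimulated Yap KO and WT cells. In the same order, the 4 monocyte and macrophage markers summed to 30.8 and 25.4 CPM. The part of all these cells in the granule gene differences was not tested.

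The other genes of the granule system did not all follow. The 5 other granzymes of the Gzmb cluster that were listed (Gzmd, Gzme, Gzmf, Gzmg and Gzmn) had at most 2 reads in any library, those of Gzmf in the stimulated cells, and none entered the test. Of 13 tested genes of granule cargo and protease maturation, 3 rose with stimulation and 4 fell, where 32.1% of all genes rose and 32.5% fell. Their median log2 change was 0.12. The largest changes were the falls of Laptm5, a lysosomal membrane protein (-1.89 ± 0.14), and Ctsd, the lysosomal protease cathepsin D (-1.76 ± 0.14). None of the 13 was called between genotypes by edgeR's quasi-likelihood test or by DESeq2. In the former 6 had an unadjusted p under 0.05, against 10.04% of all genes.

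Of 18 tested genes of granule exocytosis, 2 rose and 7 fell with stimulation, where 32.1% of all genes rose and 32.5% fell. Their median was -0.14. In edgeR's quasi-likelihood test of genotype, 1 was called higher, against 0.695% of all genes, and 4 had an unadjusted p under 0.05, against 10.04%. Stx11, a syntaxin needed for granule fusion whose loss causes an inherited failure of cytotoxicity, rose by 3.98 ± 0.19 on the log2 scale (adjusted p = 1.43e-07), to 81.4 CPM in stimulated Yap KO and 114 CPM in stimulated WT cells, against 6.43 CPM in unstimulated Yap KO and 5.72 CPM in unstimulated WT cells. Sytl2, a Rab27a effector that docks granules at the membrane, fell by 4.22 on the log2 scale. It was the 1 gene of the list called between genotypes, with 62 reads in stimulated Yap KO and 30 in stimulated WT cells and 1538 in unstimulated Yap KO and 635 in unstimulated WT cells (log2 difference 1.10 ± 0.19, edgeR quasi-likelihood adjusted p = 0.0261).

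Among the other serpins listed, 7 of 15 entered the test, 3 rose and 3 fell, where 32.1% of all genes rose and 32.5% fell. In edgeR's quasi-likelihood test of genotype, 1 was called higher, against 0.695% of all genes, and 3 had an unadjusted p under 0.05, against 10.04%. Serpine2, a secreted inhibitor of serine proteases, changed most. It had 4835 reads in stimulated Yap KO and 1126 in stimulated WT cells, against 9 in unstimulated Yap KO and 11 in unstimulated WT cells, a log2 change of 8.44 ± 0.39 (adjusted p = 1.04e-07). It was called higher in Yap KO (log2 difference 1.95 ± 0.32, adjusted p = 0.0212), although the reads show the gap in stimulated cells and the reverse order in unstimulated ones. DESeq2 did not call it (log2 difference 0.95 ± 1.13). Serpinb1b had 33 and 45 reads in stimulated Yap KO and WT cells, against 1 and 0 in unstimulated Yap KO and WT cells.

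The ligands of the granule-independent killing pathway were divided. Of 6 death ligand genes 3 rose, 2 fell and Tnf was not called, where 32.1% of all genes rose and 32.5% fell. In edgeR's quasi-likelihood test of genotype, 1 was called higher, against 0.695% of all genes, and 1 had an unadjusted p under 0.05, against 10.04%. Fasl, which triggers death through the Fas receptor, rose by 2.46 ± 0.17 on the log2 scale and was called higher in Yap KO, with 79.0 CPM in stimulated Yap KO and 31.5 CPM in stimulated WT cells and 13.3 CPM in unstimulated Yap KO and 6.28 CPM in unstimulated WT cells (log2 difference 1.21 ± 0.16, edgeR quasi-likelihood adjusted p = 0.00766). The lymphotoxin genes moved apart, Lta by 2.91 ± 0.21 and Ltb by -4.13 ± 0.22.

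Regulators of the cytotoxic program changed in both directions, 9 of 24 rose and 11 fell, with a median of -0.31, where 32.1% of all genes rose and 32.5% fell. Il2ra, the alpha chain of the interleukin 2 receptor, rose by 6.72 ± 0.27 and Irf4, a transcription factor induced by T cell receptor signals, by 6.24 ± 0.21. None of the 24 was called between genotypes by edgeR's quasi-likelihood test, where 7 had an unadjusted p under 0.05, against 10.04% of all genes. DESeq2 called 1 higher, against 0.604% of all genes. Chosen after their values were seen, Zfp683, Tbx21 and Il2rb are named because their gaps between the unstimulated libraries were the widest of the list. Zfp683 had 132 reads in unstimulated Yap KO and 12 in unstimulated WT cells, and 4 in stimulated Yap KO and 0 in stimulated WT cells. Tbx21, the T-box factor T-bet, had 2550 reads in unstimulated Yap KO and 394 in unstimulated WT cells, and 2591 in stimulated Yap KO and 2694 in stimulated WT cells. Il2rb, the beta chain of the receptors for interleukins 2 and 15, had 837 CPM in unstimulated Yap KO and 254 CPM in unstimulated WT cells, and 345 CPM in stimulated Yap KO and 397 CPM in stimulated WT cells. None of them passed the genotype test (edgeR quasi-likelihood adjusted p = 0.0599 for Zfp683, 0.372 for Tbx21 and 0.520 for Il2rb), which averages the unequal gaps of both states.

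**Figure D5:**
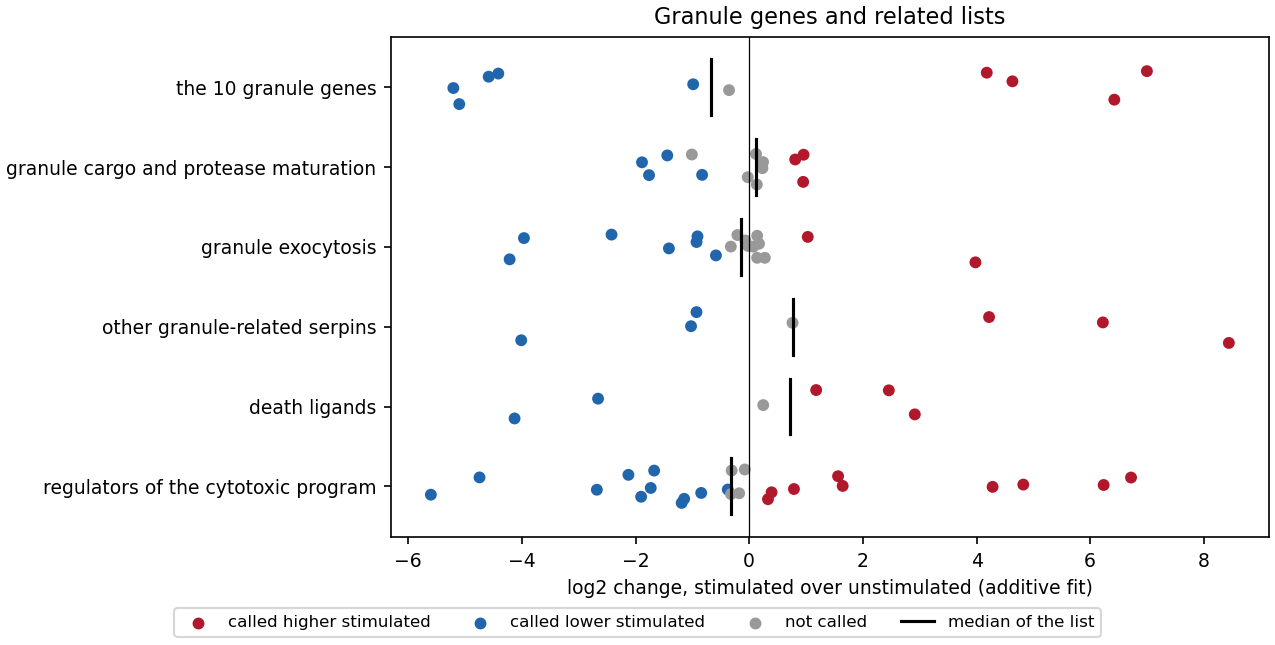
The log2 change of each tested gene with stimulation (additive fit), 1 point per gene, by list, with red for genes called higher, blue for lower and grey for those not called, and a bar at the median of each list. The granule genes lie in 2 groups on opposite sides of 0, with a median of -0.67.

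The genes whose profile over the 4 libraries was most like that of a granule gene were found by the Euclidean distance between centred log2 CPM values, among 9180 other genes with a mean of 10 CPM or more. Closest to Gzmb were Shcbp1 (distance 0.303), Pbk (0.303), Slc16a3 (0.366), Rrm2 (0.446) and Espl1 (0.469), 4 of which are known from dividing cells and 1 of which, Slc16a3, exports lactate. Closest to Gzma was Ly6c2, a surface protein of memory CD8 T cells and monocytes, at a distance of 0.0864, with 48.1 CPM in stimulated Yap KO and 54.5 CPM in stimulated WT cells, against 1414 CPM in unstimulated Yap KO and 814 CPM in unstimulated WT cells. The next were Nsg2, Mettl27, Fam189b and A430078G23Rik, at 0.564 to 0.598. Closest to Prf1 were Prrc2a, Zfp984, Hif1an, Tldc1 and Dglucy, at 0.236 to 0.312. With 4 libraries, a profile holds only 3 free differences, so many genes can lie close by.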

How the data were processed

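The authors deposited for each of the 4 libraries a table of raw counts, 1 row per Ensembl gene, with 5 summary entries of the kind htseq-count writes, which were left out; reads in genes were 35.6 to 39.7% of all entries. The submitters' processing notes name the build mm9. Which aligner, gene models and strandedness were used is not given in the sources used here, so reads of genes with exons opposite each other may not be separable. Coordinates, lengths and overlaps are from GENCODE M21 on GRCm38, and 50376 of 50686 identifiers matched a symbol. Promoter sequences are RefSeq's (GRCm38.p6).

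Genes were kept with filterByExpr by state (minimum count 10), leaving 15394, of which 5376 have exons opposite another gene. Counts were scaled by TMM and tested with edgeR 4.0.16 (quasi-likelihood F test, genotype and state additive on all 4 libraries, 1 residual degree of freedom, 8.45 prior degrees of freedom on average, Benjamini-Hochberg over all genes tested) in R 4.3.3, with DESeq2 1.42.0 as an alternative. The fit was tested on simulated data. Intervals are exact Poisson (levels) and Clopper-Pearson (ratios) at 95% and cover counting error only, since there is 1 library per group. Reads are not known to be separate molecules, so the intervals may be too narrow even for counting error. Intervals of a difference between ratios are normal approximations from the counts. The ± values given with edgeR changes were derived as the absolute log2 change divided by the square root of its F statistic. Log2 ratios used a prior count of 2. Folds are plain ratios of scaled counts.

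Members, lists and the rule for named genes were chosen with earlier results of these data known. All 10 members are named. From each related list, the 2 genes with the largest called stimulation change and every gene called between genotypes are named. Zfp683, Tbx21 and Il2rb were named outside this rule. Vamp7 and Trgc1 were not analysed here.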

Additional observations from a re-analysis of the deposited data

Results flagged for a closer look

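Gzmb was higher in Yap KO than in WT in the unstimulated libraries and lower in the stimulated ones, with counting intervals on opposite sides of no difference. Its log2 stimulation ratio in Yap KO minus that in WT was -1.04. With 1 library per group this difference was not tested, and its cause was not tested either.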

How the results depend on the processing

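Scaling by DESeq2's size factors or by total reads alone, a filter of mean CPM of 1 or more, and leaving out genes with exons opposite another gene kept the counts of called granule genes within 1.5 times of those given, 4 higher and 5 lower with stimulation and 0 between genotypes, except that Prf1 was also called lower under total reads. Leaving out genes with exons opposite another gene removed Ctsw itself, so 9 granule genes were tested there and 4 were called lower. Without a filter beyond 1 read, 410 of 25195 genes were called higher and 261 lower in Yap KO, against 107 and 75 of 15394, 6 of the granule genes were called higher in Yap KO, and of the related lists 14 genes were called higher and 1 lower. DESeq2's Wald test called 3 granule genes higher in Yap KO, and 93 of 15394 genes in all. The cause was not tested. With a prior count of 0.5, 3 granule genes were at least 2-fold higher in unstimulated Yap KO, Gzmm, Gzmk and Gzmc, the last from 1 read against 0. No granule gene changed direction in the stimulation or genotype test under the scalings, filters and DESeq2, but with that prior count the Gzmc difference of log2 stimulation ratios turned to -0.66, against 0.25. Scaling by total reads alone moved the median stimulation change of all genes to -0.14. All 4 libraries carry replicate number 1, so pairing by that number coincides with genotype, and no separate paired analysis was made. The genotype term already sets each stimulated library against the unstimulated one of its genotype. With 1 library per group, leaving out a library leaves no residual degrees of freedom, and no such fit was made. Depth limits the stimulated values of Gzma, Gzmk and Gzmm, which rest on 0 to 21 reads.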
